A study of Mus musculus with 9 samples.

Results

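Growth factor receptor tyrosine kinases, the cell-surface enzymes that bind EGF family ligands, fibroblast growth factors, neurotrophins and hepatocyte growth factor, were followed by their mRNA in sorted neural progenitors. The members were 10 genes named by symbol, and the 9 found in the table of normalized values (Egfr, Erbb2, Erbb3, Erbb4, Fgfr1, Fgfr2, Fgfr3, Ntrk2 and Ntrk3) stood among 18329 genes. Met, the receptor for hepatocyte growth factor, was not analysed here. The cells came from the third ventricular zone (TVZ), the germinal lining of the third ventricle, of mice harvested on postnatal day 1. All mice were on the C57/BL6 background and carried Nestin-CFPnuc, a transgene in which the promoter of Nestin, an intermediate filament gene of neural progenitors, drives cyan fluorescent protein (CFP). Cells were sorted by CFP and by the surface protein CD133, the product of Prom1, into CD133+Nestin+, Nestin+ and CD133+ populations, with 3 RNA-seq libraries each. The labels name no treatment, and they give neither the CD133 status of the Nestin+ cells nor the CFP status of the CD133+ cells. The label Nestin+ thus rests on a transgene promoter and not on Nestin protein. Each library carries a sort number (1, 2 or 3) that equals its passage number, and nothing in the labels says whether libraries came from separate animals, so the p-values measure the spread between these libraries.

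These receptors share a plan: ligand binding brings receptor chains together, their kinase domains phosphorylate each other, and adaptor proteins docked on the phosphorylated tails switch on Ras, phosphoinositide 3-kinase and phospholipase C. The wider study concerns Nf1, whose product neurofibromin turns Ras off, downstream of such receptors. In germinal zones of the brain EGF and FGF receptors are best known for keeping progenitors dividing, and the neurotrophin receptors TrkB and TrkC for signals of survival and maturation in neurons and glia.

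Levels are in CPM, read counts scaled to the depth of each library, a unit inferred from the deposited values. The smallest steps between values put the depth at about 29100000 to 35000000 reads per library, so that 3 reads corresponded to 0.0857 to 0.103 CPM, a limit for counting error only. All 9 receptors lay above that limit in every library, and all 9 passed the filter of 1 CPM in at least 3 libraries. The sort marks followed the labels: Nes stood at 172 to 212 CPM in CD133+Nestin+ and 157 to 195 CPM in Nestin+ libraries against 39.5 to 57.3 CPM in CD133+ libraries, and Prom1 at 116 to 181, 39.3 to 58.1 and 146 to 182 CPM in the same order of populations. Sox2, a general progenitor marker, lay between 44.9 and 124.9 CPM in all 9 libraries. Rax, a marker of hypothalamic progenitors and tanycytes, reached no more than 3.68 CPM in any. The other markers in the progenitor list were Vim (468 to 1137 CPM), Fabp7 (404 to 5974 CPM), Slc1a3 (1012 to 6128 CPM), Hes5 (3.94 to 284 CPM) and Nkx2-1 (2.28 to 17.0 CPM). CD133+Nestin+ replicate 2 stood apart. Its correlations with the other libraries across genes were 0.802 to 0.896, against 0.825 to 0.966 among the rest, and the listed genes held 65.9% of its CPM total, the lowest share of the 9. Receptor differences of the CD133+Nestin+ population are given with and without it. In bulk RNA, fewer cells of a type and less RNA per cell cannot be told apart.

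The 3 promoters printed here belong to the receptor that differed most clearly and is represented in the RefSeq promoter table (Fgfr3), the most abundant receptor (Ntrk2) and the receptor that varied most between sorts (Egfr). Each line holds the 250 bases before a RefSeq transcription start (GRCm38.p6, plus strand), for Fgfr3 at chr5:33721474-33721723, for Ntrk2 at chr13:58806319-58806568 and for Egfr at chr11:16751953-16752202, and capitals mark GC box cores (GGGCGG on either strand, read here as CCGCCC).
Fgfr3: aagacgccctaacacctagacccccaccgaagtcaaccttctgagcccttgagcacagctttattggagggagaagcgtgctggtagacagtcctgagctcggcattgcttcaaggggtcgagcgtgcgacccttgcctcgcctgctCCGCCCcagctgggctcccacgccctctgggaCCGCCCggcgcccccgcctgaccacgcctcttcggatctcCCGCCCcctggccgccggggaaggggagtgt
Ntrk2: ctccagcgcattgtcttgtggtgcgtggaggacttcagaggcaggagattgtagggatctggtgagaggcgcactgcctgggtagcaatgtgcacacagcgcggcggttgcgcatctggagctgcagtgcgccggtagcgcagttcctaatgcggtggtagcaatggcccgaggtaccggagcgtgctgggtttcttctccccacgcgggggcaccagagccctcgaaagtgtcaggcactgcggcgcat
Egfr: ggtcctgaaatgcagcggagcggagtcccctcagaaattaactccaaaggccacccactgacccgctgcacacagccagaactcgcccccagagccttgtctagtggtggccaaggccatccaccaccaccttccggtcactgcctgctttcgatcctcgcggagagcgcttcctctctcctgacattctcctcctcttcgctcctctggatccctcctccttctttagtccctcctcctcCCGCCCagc
The GC box core occurred 3 times in the Fgfr3 window, 0 times in the Ntrk2 window and 1 time in the Egfr window, and 32.9% of 27025 promoters of this length held at least 1. None of these 3 windows held TATAAA, which 13% of promoters did. Their GC contents were 66.8%, 62.8% and 60.8%, against a median of 52% over all promoters. The RefSeq start of Fgfr3 lies downstream of the GENCODE gene start given with its values, and another RefSeq start is not shown. Promoters were found for 6 of the 9 receptors, and those of Erbb3, Fgfr1 and Ntrk3 were not in the table used.

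Across the populations the receptors kept nearly the same order of level once values were divided by gene length (CPM per kilobase of merged exons, CPM/kb). Ntrk2, which encodes TrkB, the receptor of BDNF, was the most abundant, at 52.6 ± 11.4 CPM/kb in CD133+Nestin+, 53.3 ± 14.4 CPM/kb in Nestin+ and 27.8 ± 11.8 CPM/kb in CD133+ libraries (SD, n = 3 each). Fgfr3 came next with means of 20.4, 42.2 and 10.5 CPM/kb in the same order of populations. Fgfr1 followed with 15.0, 17.8 and 7.81 CPM/kb, and Egfr with 7.53, 13.1 and 6.18 CPM/kb. Compared within each library, Ntrk2 stood above Fgfr3 in 8 of 9, all but Nestin+ replicate 3. Fgfr3 stood above Fgfr1 in 7 of 9, among them all 3 Nestin+ libraries, and below it in CD133+Nestin+ replicate 2 and CD133+ replicate 2. Fgfr1 stood above Egfr in 6 of 9 and below it in the sort 1 library of each population, so the order of these neighbours was not fixed.

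Further down, Erbb2 and Fgfr2 were near each other. Erbb2 averaged 3.65, 4.82 and 3.01 CPM/kb and Fgfr2 averaged 3.86, 3.20 and 2.21 CPM/kb in CD133+Nestin+, Nestin+ and CD133+ libraries. Within libraries Erbb2 was the higher in 8 of 9, all but CD133+Nestin+ replicate 2. Ntrk3 averaged 1.11, 3.08 and 0.735 CPM/kb, and Erbb4 averaged 1.03, 1.52 and 0.715 CPM/kb. Ntrk3 stood above Erbb4 in 7 of 9 libraries, among them all 3 Nestin+ libraries, and below Fgfr2 in 7 of 9, with Nestin+ replicates 1 and 2 the other way. Erbb3 came last with 0.205, 0.658 and 0.227 CPM/kb and was below Erbb4 in all 9 libraries. The length used matters for some of these positions. By the longest coding transcript, Fgfr2 ranked above Erbb2 in all 3 populations and above Egfr in CD133+Nestin+ libraries. The values are sums over a gene, so truncated TrkB, a form without a kinase domain that astrocytes make, cannot be told apart from the full receptor.

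**Figure D1:**
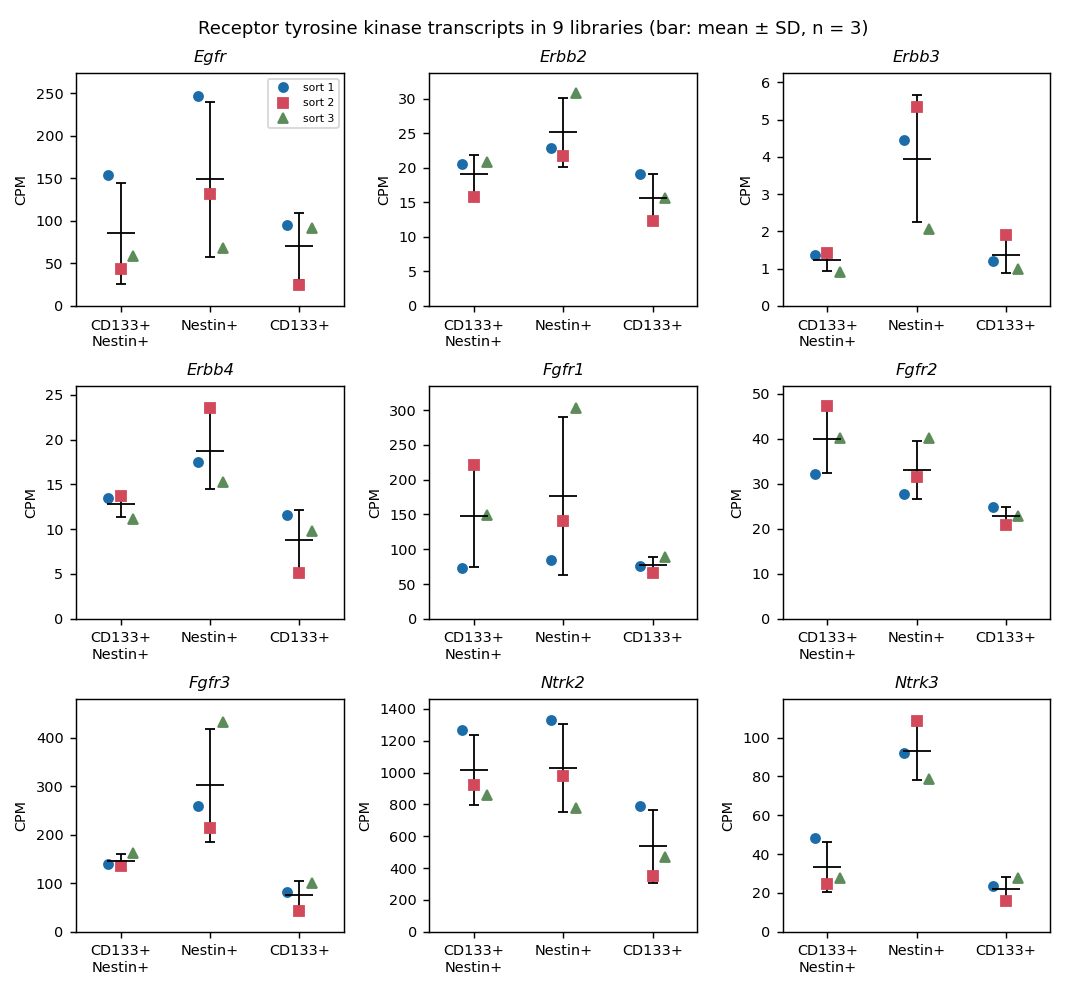
Normalized level of 9 receptors (CPM, each panel with its own linear axis from 0) in CD133+Nestin+, Nestin+ and CD133+ libraries; each symbol is a library, its shape and colour give the sort number, and horizontal lines with bars are the mean ± SD of 3 libraries. Fgfr3 and Ntrk3 are highest in the 3 Nestin+ libraries, at 213 to 433.6 CPM and 78.6 to 108.5 CPM.

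The FGF receptors bind fibroblast growth factors together with heparan sulfate. Fgfr3, in brain a receptor of radial glia and astrocytes, had 140.1, 136.1 and 161.9 CPM in CD133+Nestin+ libraries 1, 2 and 3, 258.6, 213 and 433.6 CPM in Nestin+ libraries and 81.4, 42.6 and 100.8 CPM in CD133+ libraries. No value of a population overlapped with those of another, and Nestin+ was the highest. The gene lies on chromosome 5 at 33721674 to 33737068 on the plus strand (GENCODE M21, GRCm38, the same build as mm10). Between Nestin+ and CD133+ libraries Fgfr3 rose by 2.02 ± 0.36 on the log2(CPM + 1) scale (SE), a 4.04-fold difference, with an adjusted p of 0.00379 (limma, Benjamini-Hochberg over 16143 genes), and it was higher in 3 of 3 sorts. The call held in all 9 fits that left out 1 library, with differences of 1.66 to 2.27 and adjusted p of 0.00302 to 0.0192.

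CD133+Nestin+ libraries lay between the other populations in Fgfr3. Against CD133+ the difference was 1.04 ± 0.36 with an adjusted p of 0.221, and against Nestin+ it was -0.98 ± 0.36 with an adjusted p of 0.227 (limma). With the sort number as a block the same differences had adjusted p of 0.0313 and 0.033. Without CD133+Nestin+ replicate 2 they were 1.08 and -0.93 (adjusted p 0.274 and 0.335), and with the block in addition they were 0.80 and -1.22, with adjusted p of 0.0489 and 0.00515.

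Fgfr1, the most widely expressed FGF receptor of neural progenitors, had 73.3, 220.7 and 149.6 CPM in CD133+Nestin+, 84.6, 140.5 and 303.5 CPM in Nestin+ and 76.6, 65.5 and 89.2 CPM in CD133+ libraries. The libraries of sort 1 were alike in all 3 populations, at 73.3 to 84.6 CPM, while those of sorts 2 and 3 were higher in both Nestin-labelled populations than in CD133+. The difference between Nestin+ and CD133+ was 1.00 ± 0.48 with an adjusted p of 0.246 (limma). Within a population the highest library exceeded the lowest 3.01-fold in CD133+Nestin+, 3.59-fold in Nestin+ and 1.36-fold in CD133+.

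Fgfr2, which shares FGF ligands with Fgfr1 and Fgfr3 and acts in oligodendrocyte lineage and radial glia, had 32.2, 47.3 and 40.1 CPM in CD133+Nestin+, 27.6, 31.4 and 40.1 CPM in Nestin+ and 24.7, 20.9 and 22.9 CPM in CD133+ libraries. Its mean on the log2 scale was highest in CD133+Nestin+ cells, by 0.26 ± 0.25 over Nestin+ (adjusted p = 0.742) and by 0.76 ± 0.25 over CD133+ (adjusted p = 0.182, limma). Every CD133+Nestin+ and Nestin+ library lay above every CD133+ library, and neither difference from CD133+ passed the threshold. In the GENCODE model the span of Fgfr2 covers many other genes, and no source used here says whether reads were assigned by strand, so its level is less certain. Among overlapping genes that have values here, Fgfr3 and Ntrk3 each have a gene on the opposite strand, and Ntrk2 has a gene on either strand. Egfr, Erbb3, Erbb4 and Fgfr1 overlap only with annotated genes that have no values here.

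Each receptor's share of its family was compared as well. Fgfr3 made up 65.0%, 41.4% and 54.3% in CD133+Nestin+ libraries 1, 2 and 3, so that the library that stands apart had the lowest share. In means, Fgfr3 made up 53.6% ± 11.8 of the summed CPM/kb of Fgfr1, Fgfr2 and Fgfr3 in CD133+Nestin+, 67.7% ± 7.40 in Nestin+ and 49.7% ± 7.92 in CD133+ libraries (SD, n = 3 each), and Fgfr2 made up 9.88%, 5.39% and 11.2%. The Nestin+ share of Fgfr3 did not overlap with that of CD133+ (63.3% to 76.3% against 40.7% to 55.6%), nor did that of Fgfr2 (4.08% to 6.46% against 8.74% to 13.9%). Both differences had p = 0.1 by exact permutation (two-sided), the smallest that 3 against 3 libraries allow, and 0.338 after Benjamini-Hochberg adjustment over 27 such tests.

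**Figure D2:**
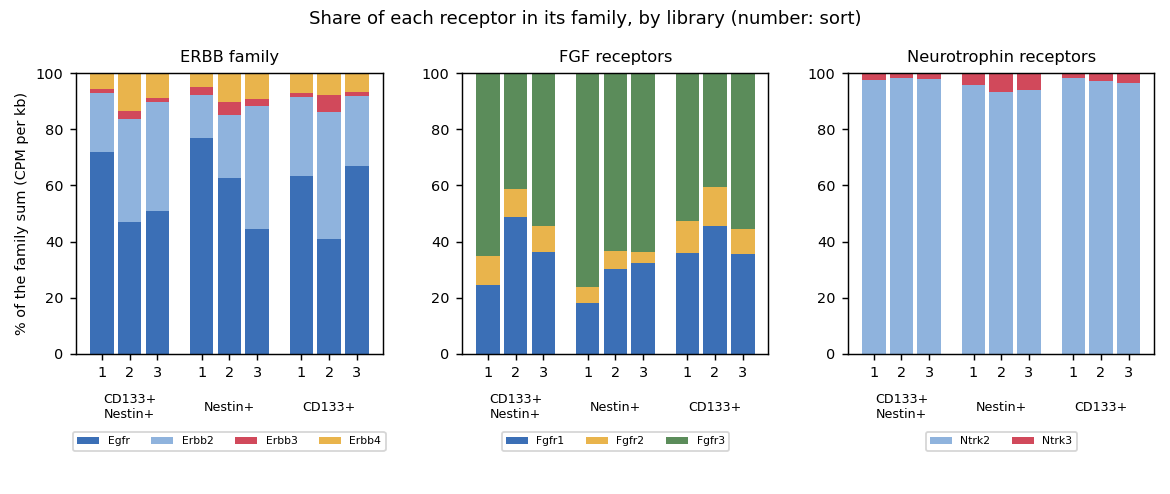
Share of each receptor in the summed CPM per kilobase of its family (percent, vertical axis) for ERBB receptors, FGF receptors and neurotrophin receptors; each bar is a library, numbered by sort and grouped as CD133+Nestin+, Nestin+ and CD133+. Fgfr3 takes 63.3% to 76.3% of the FGF receptor sum in Nestin+ bars, and Ntrk2 93.4% or more of the neurotrophin receptor sum in every bar.

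Of the neurotrophin receptors, Ntrk3, which encodes TrkC, the receptor of neurotrophin 3, had 48.3, 24.5 and 27.6 CPM in CD133+Nestin+, 91.9, 108.5 and 78.6 CPM in Nestin+ and 23.4, 15.6 and 27.4 CPM in CD133+ libraries. Every Nestin+ library exceeded all 6 others, and CD133+Nestin+ overlapped with CD133+. The gene spans 78175959 to 78738012 on the minus strand of chromosome 7. In Nestin+ against CD133+ libraries Ntrk3 rose by 2.04 ± 0.31 on the log2 scale, 4.12-fold, with an adjusted p of 0.00162 (limma), a call that held in all 9 fits leaving out 1 library (1.82 to 2.21, adjusted p 0.000459 to 0.0127).

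Ntrk3 was also the receptor that fell in CD133+Nestin+ against Nestin+ libraries, by 1.50 ± 0.31 (33.5 ± 13.0 against 93.0 ± 15.0 CPM, SD, n = 3 each), with an adjusted p of 0.0263. That call depended on single libraries: it was lost without CD133+Nestin+ replicate 2 (-1.31, adjusted p 0.0601) or replicate 3 (-1.40, adjusted p 0.124) and without Nestin+ replicate 1, 2 or 3 (adjusted p 0.0835, 0.142 and 0.0647). The difference stayed between -1.79 and -1.31 in all 9 such fits. CD133+Nestin+ and CD133+ libraries differed by 0.55 ± 0.31 with an adjusted p of 0.526.

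Ntrk2 had 1268, 919 and 859.7 CPM in CD133+Nestin+, 1329, 980.2 and 778 CPM in Nestin+ and 792, 350.4 and 469.6 CPM in CD133+ libraries. CD133+Nestin+ and Nestin+ ran side by side (a difference of -0.01 ± 0.36, adjusted p 0.998, above 0 in 6 of 20 alternatives), and both exceeded CD133+ in each sort, by 0.98 ± 0.36 (adjusted p 0.26) and by 0.99 ± 0.36 (adjusted p 0.114) in limma. With the sort number as a block the adjusted p became 0.0272 and 0.00883, and 0.0498 and 0.00345 when CD133+Nestin+ replicate 2 was left out as well. In all 3 populations the library of sort 1 was the highest, as was so for 17.7% of genes tested. The share of Ntrk3 in the summed CPM/kb of both Ntrk genes was 2.02% in CD133+Nestin+, 5.64% in Nestin+ and 2.74% in CD133+ libraries, and Nestin+ values (4.24% to 6.61%) did not overlap with either (exact two-sided permutation p = 0.1, the smallest possible here, 0.338 adjusted over 27 tests).

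Among the ERBB receptors no difference passed the threshold in the fit of all 9 libraries without the block. In Nestin+ against CD133+, Erbb2 passed in 2, Erbb3 in 4 and Erbb4 in 6 of their alternatives. Egfr, the receptor of EGF and transforming growth factor alpha and a mark of dividing progenitors in the neighbouring lateral ventricle, had 153.6, 43.7 and 58.7 CPM in CD133+Nestin+, 246.6, 131.9 and 67.6 CPM in Nestin+ and 94.6, 24.3 and 91.0 CPM in CD133+ libraries. The ranges overlapped in every pairing, and sort 1 gave the highest library in each population. The highest library exceeded the lowest 3.52-fold, 3.65-fold and 3.89-fold in CD133+Nestin+, Nestin+ and CD133+, the widest spread of any receptor in each. Nestin+ against CD133+ differed by 1.11 ± 0.63 with an adjusted p of 0.344 (limma), and the difference within sort was 1.37, 2.39 and -0.42 in sorts 1, 2 and 3. The direction of CD133+Nestin+ against CD133+, 0.30 ± 0.63, turned to -0.23 without CD133+Nestin+ replicate 1 and to -0.33 without CD133+ replicate 2.

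Erbb2, which binds no ligand itself and serves as partner of the other ERBB receptors, had 20.5, 15.8 and 20.8 CPM in CD133+Nestin+, 22.8, 21.7 and 30.8 CPM in Nestin+ and 19.1, 12.4 and 15.5 CPM in CD133+ libraries. Every Nestin+ library was above the other 6, by margins as small as that between 21.7 and 20.8 CPM. Nestin+ against CD133+ differed by 0.65 ± 0.27 (adjusted p 0.17). Erbb2 overlaps with Mien1 on the opposite strand, and reads of both cannot be told apart if strand was not used.

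The neuregulin receptors Erbb3 and Erbb4 were low, and both had their highest values in Nestin+ libraries. Erbb3, whose kinase is weak and which signals through its partners in oligodendrocyte precursors and Schwann cells, had 1.38, 1.42 and 0.904 CPM in CD133+Nestin+, 4.47, 5.35 and 2.07 CPM in Nestin+ and 1.20, 1.91 and 0.992 CPM in CD133+ libraries. Nestin+ libraries lay above all others, with differences of 1.02 ± 0.35 against CD133+ (adjusted p 0.0871) and, for CD133+Nestin+ against Nestin+, of -1.09 ± 0.35 (adjusted p 0.149). With the block these had adjusted p of 0.0279 and 0.0478, and in the block fit without CD133+Nestin+ replicate 2 the second was -0.97 with an adjusted p of 0.0587. Without Nestin+ replicate 3 and without the block, the first was 1.33 with an adjusted p of 0.0436. At such levels the added 1 CPM shrinks the log2 difference: the means in Nestin+ and CD133+ libraries were 3.96 ± 1.70 and 1.37 ± 0.479 CPM.

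Erbb4, a neuregulin receptor with a full kinase that is known from interneurons and their precursors, had 13.5, 13.7 and 11.1 CPM in CD133+Nestin+, 17.5, 23.6 and 15.2 CPM in Nestin+ and 11.6, 5.09 and 9.80 CPM in CD133+ libraries. Nestin+ was again above the rest without overlap. The difference between Nestin+ and CD133+ was 1.05 ± 0.33 with an adjusted p of 0.0649 (limma) and 0.046 with the block, and without CD133+Nestin+ replicate 2 it had an adjusted p of 0.0433.

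Read as a group, the receptors ran highest in Nestin+ libraries. They were chosen with earlier results of these data known, so the counts below are a description. In Nestin+ against CD133+, 2 of the 9 receptors rose (Fgfr3 and Ntrk3) and 0 fell at an adjusted p under 0.05, where 11.9% of the 16143 genes tested were called, 2.45% of them higher and 9.42% lower as shares of genes tested. All 9 differences were above 0, 8 of them in all 3 sorts, which held for 26% of genes (31.7% were lower in all 3, and no receptor was), and 6 receptors had Nestin+ libraries wholly above CD133+ libraries, as 11.8% of genes did. None had them wholly below, as 21.1% of genes did. The median difference of the 9 was 1.02, against -0.02 over all genes. With the sort number as a block 5 receptors rose, as Erbb3, Erbb4 and Ntrk2 passed as well, where 6.06% of genes rose in that fit.

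In CD133+Nestin+ against CD133+ libraries 0 of 9 receptors passed in limma, where 2.42% of genes were called (0.297% higher and 2.12% lower), while 3 had an unadjusted p under 0.05 (Fgfr2, Fgfr3 and Ntrk2), as 12.6% of genes did. With the block 2 rose (Fgfr3 and Ntrk2), where 1.12% of genes rose. The same 3 had CD133+Nestin+ libraries wholly above CD133+ libraries, which held for 6.55% of genes, and 0 had them wholly below, which held for 11% of genes. Within sorts 6 receptors were higher in all 3 (18.9% of genes) and 0 lower in all 3 (24.2% of genes), and the median difference was 0.55 against -0.06 over all genes. Set against Nestin+, CD133+Nestin+ libraries showed 1 receptor of 9 that fell, Ntrk3, where 3.13% of genes were called (2.87% higher and 0.254% lower). With the block 3 fell (Ntrk3, Erbb3 and Fgfr3), where 1.12% of genes fell. The median difference was -0.51, against -0.04 over all genes, and 5 receptors had CD133+Nestin+ libraries wholly below Nestin+ libraries, as 6.22% of genes did, with 0 wholly above (11.1% of genes). Within sorts 6 were lower in all 3 (20.4% of genes) and 1, Fgfr2, was higher in all 3 (21.9% of genes), with 40.1 CPM in both libraries of sort 3 after rounding. The 3 comparisons share libraries in pairs and are not independent of each other. An F test over the 3 populations called Fgfr3 (adjusted p 0.0111) and Ntrk3 (adjusted p 0.00401), where 9.5% of genes were called, and with the block also Erbb3 (0.0336) and Ntrk2 (0.0123), where 16.5% of genes were called.

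Without CD133+Nestin+ replicate 2, and without the block, 0 of 9 receptors passed in CD133+Nestin+ against CD133+ (2.28% of genes were called) and 0 of 9 against Nestin+ (2.79% of genes). The medians of the 9 differences were 0.64 against CD133+ and -0.55 against Nestin+, beside 0.01 and 0.05 over all genes. With the 2 CD133+Nestin+ libraries left, 5 receptors lay wholly above CD133+ libraries, as 15.1% of genes did, and 5 wholly below Nestin+ libraries, as 9.54% of genes did. The receptors above CD133+ were Erbb2, Fgfr2, Fgfr3, Ntrk2 and Ntrk3, and those below Nestin+ were Erbb2, Erbb3, Erbb4, Fgfr3 and Ntrk3.

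**Figure D3:**
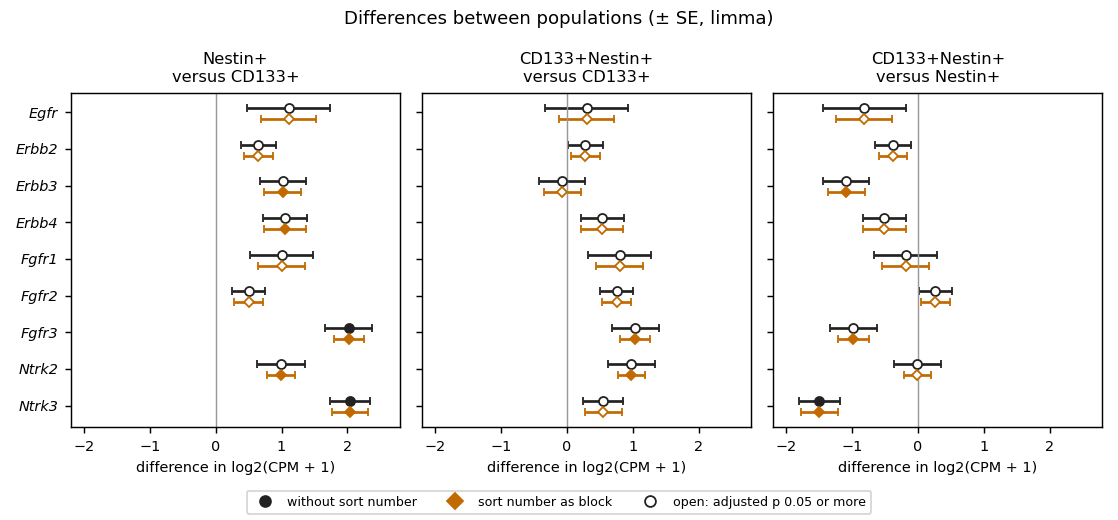
Difference of log2(CPM + 1) of each receptor (points) with its SE (bars) for Nestin+ minus CD133+ (left), CD133+Nestin+ minus CD133+ (middle) and CD133+Nestin+ minus Nestin+ (right), from limma without the sort number (circles) and with it as a block (diamonds); filled symbols have an adjusted p under 0.05. All 9 points of the left panel lie above 0, and the block narrows most bars without moving the points.

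In the authors' deposited table of comparisons the same 3 differences stood out among these receptors. The authors' deposited table gave Fgfr3 a ratio of 4.03 for Nestin+ over CD133+ with a false discovery rate of 0.00607, and Ntrk3 a ratio of 4.20 with 0.00301. For Nestin+ over CD133+Nestin+ the authors' deposited table gave Ntrk3 a ratio of 2.78 with 0.0347, and no other receptor had a rate under 0.05 there.

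Markers of other cell types moved with these results. Oligodendrocyte precursor markers (10 of 10 in the table) summed to 138.7 to 542.6 CPM in CD133+Nestin+, 715 to 1327 CPM in Nestin+ and 79.7 to 164.9 CPM in CD133+ libraries, and neuron and neuroblast markers (9 of 10) to 283.6 to 362 CPM, 467 to 599 CPM and 201 to 276 CPM. Both sums were thus highest in the population where Fgfr3, Ntrk3, Erbb3 and Erbb4 were highest. Of these markers, 7 and 4 rose in Nestin+ against CD133+ libraries, where 2.45% of genes rose. In CD133+Nestin+ against Nestin+ libraries 4 and 0 fell, where 0.254% of genes fell. The progenitor sum (9 of 9) was 3762 to 9112, 7584 to 13259 and 2176 to 6401 CPM in the same order of populations. Its Nestin+ and CD133+Nestin+ ranges overlapped. Within each sort the progenitor sum was highest in Nestin+ and lowest in CD133+ libraries, as was the astrocyte sum given below. Fabp7 and Slc1a3 made up most of the progenitor sum, and the list holds both sort marks. In Nestin+ against CD133+, Prom1 (-1.72 ± 0.26, adjusted p 0.00152, limma) and Vim (-0.12 ± 0.34) were lower. Nes, Sox2, Rax, Nkx2-1, Fabp7, Slc1a3 and Hes5 had differences above 0.

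Astrocyte markers (10 of 10) spread widely, over 1543 to 2779 CPM, 1762 to 3967 CPM and 722 to 2636 CPM in the same order, with sort 1 highest in each population, as for Egfr and Ntrk2. The same held for the progenitor sum and for 17.7% of genes tested. Fgfr3 was instead highest in sort 3, and Erbb3 in sort 2, in each population. Ependymal markers (10 of 10) summed to 1571 to 1997 CPM in CD133+Nestin+, 307 to 403.9 CPM in Nestin+ and 1726 to 3463 CPM in CD133+ libraries. All 10 fell in Nestin+ against CD133+ libraries, where 1 of 10 astrocyte markers rose (9.42% of genes fell and 2.45% rose). All 10 ependymal markers rose in CD133+Nestin+ against Nestin+ libraries, with a median difference of 2.38, where 2.87% of genes rose. CD133+ libraries further held the highest sums of microglial (10 of 10, 966 to 2780 CPM, against at most 325.8 CPM elsewhere), endothelial (4 of 10, 330.5 to 648 CPM, against at most 35.6 CPM), mural (7 of 10, 750.2 to 1508 CPM, against at most 280.3 CPM) and erythroid markers (5 of 7, 783 to 1537 CPM, against at most 343.8 CPM). No marker in the table was at or under 3 reads in a whole population. The part of these cell types in the receptor differences was not tested.

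Ligands were sparse in the table. Of 11 EGF family ligands 5 were measured, of which 0 passed in Nestin+ against CD133+, where 11.9% of genes were called (2.45% higher). Tgfa, which encodes transforming growth factor alpha, a ligand of the EGF receptor, fell in CD133+Nestin+ against Nestin+ libraries by 1.75 ± 0.42 (10.4 ± 6.59 against 34.8 ± 11.9 CPM, adjusted p 0.0479, limma), a call lost in 12 of 20 alternatives, among them all 9 fits without 1 library except that without CD133+Nestin+ replicate 1 (adjusted p 0.00807 to 0.236 over the 9). In CD133+Nestin+ against Nestin+ libraries 0.254% of genes fell. Of 17 FGF ligands 5 were measured. Fgf10, a ligand made by tanycytes of the hypothalamus, rose in Nestin+ against CD133+ libraries by 1.25 ± 0.36 (4.46 ± 0.632 against 1.28 ± 0.182 CPM, adjusted p 0.0461), a call that held in 10 of 19 alternatives and was lost when any Nestin+ or CD133+ library was left out (adjusted p 0.0232 to 0.143 over the 9 fits without 1 library). With the block a further FGF ligand, Fgf18, rose in that comparison (1.60 ± 0.43, adjusted p 0.0265), where 6.06% of genes rose. Neurotrophins and hepatocyte growth factor, with its activators, were not analysed here.

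Of 13 measured co-receptors and other receptors of these families, 1 rose in Nestin+ against CD133+ libraries. That was 7.69% called, below the 11.9% of all genes (2.45% higher). With the block 4 rose and 1 fell, where 6.06% of genes rose and 2116 of 16143 fell. Fgfrl1, an FGF receptor without a kinase domain, was the 1 that rose, by 1.50 ± 0.38 (15.4 ± 0.983 against 5.07 ± 2.05 CPM, adjusted p 0.0253). The call was lost without each single Nestin+ library and without CD133+ replicate 2 or 3 (adjusted p 0.00619 to 0.116 over the 9 fits without 1 library). The 3 further genes that rose with the block were Sdc3 (1.27 ± 0.26, adjusted p 0.00826) and Gpc1 (0.92 ± 0.28, adjusted p 0.0485), which carry heparan sulfate chains, and Sorcs1 (1.02 ± 0.28, adjusted p 0.0322), a sorting receptor. The gene that fell was Nrp1, a co-receptor of semaphorins and VEGF (-1.05 ± 0.25, adjusted p 0.0151). In the other comparisons 0 of 13 passed without the block, where 2.42% (against CD133+) and 3.13% (against Nestin+) of genes were called. With it Nrp1 fell in CD133+Nestin+ against CD133+ (-1.06 ± 0.25, adjusted p 0.0417), as did 595 of 16143 genes.

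Adaptors and proximal effectors (28 of 30 measured) went both ways: in Nestin+ against CD133+ libraries 3 rose and 2 fell, or 5 and 2 with the block. Without the block that was 17.9% called, beside 11.9% of all genes (2.45% higher and 9.42% lower). With it 6.06% of genes rose and 2116 of 16143 fell. Shc4, an adaptor of the Shc family found in neural tissue, rose by 2.33 ± 0.33 (20.0 ± 5.24 against 3.15 ± 1.01 CPM, adjusted p 0.00115), whereas its widely expressed relative Shc1 fell by 1.53 ± 0.34 (7.34 ± 2.44 against 23.2 ± 8.08 CPM, adjusted p 0.0131). Pik3r1, the regulatory subunit of phosphoinositide 3-kinase, rose by 1.35 ± 0.25 in that comparison (adjusted p 0.00434) and fell by 1.13 ± 0.25 in CD133+Nestin+ against Nestin+ libraries (adjusted p 0.033). It was the 1 of 28 called in CD133+Nestin+ against Nestin+, where 0.254% of genes fell. Grb14, an adaptor that binds and inhibits receptor kinases, fell by 2.00 ± 0.44 in Nestin+ against CD133+ libraries (adjusted p 0.0125). With the block Shc3 and Kidins220 rose as well in Nestin+ against CD133+, Shc1 fell in CD133+Nestin+ against CD133+ (-1.27 ± 0.24, adjusted p 0.015), and in CD133+Nestin+ against Nestin+ Grb14 rose (1.55 ± 0.31, adjusted p 0.0182) and Shc4 fell (-1.34 ± 0.30, adjusted p 0.0301). In the block fit 595 of 16143 genes fell in CD133+Nestin+ against CD133+. Against Nestin+ 803 of 16143 rose and 1.12% fell. The Shc4 difference and the first of Pik3r1 held in all 20 alternatives, Grb14 in 18, Shc1 in 17 and the second of Pik3r1 in 13. Grb14 was lost without Nestin+ replicate 3 or CD133+ replicate 2 (adjusted p up to 0.0597), Shc1 without Nestin+ replicate 1 or 2 or CD133+ replicate 3 (up to 0.0701), and the second of Pik3r1 without each single Nestin+ library, CD133+Nestin+ replicate 3 or CD133+ replicate 3 (up to 0.172).

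Receptor-level regulators (26 of 28 measured), mostly inhibitors, showed 4 that rose and 0 that fell in Nestin+ against CD133+ libraries. That was 15.4% called, beside 11.9% of all genes (2.45% higher and 9.42% lower). Their median difference was 0.28 against -0.02 over all genes. With the block, which added Spry1 and Spry2, 6 rose, where 6.06% of genes rose. Spry4, which dampens Ras activation and is induced by FGF signals in many tissues, rose by 2.07 ± 0.43 (51.4 ± 2.08 against 13.6 ± 10.5 CPM, adjusted p 0.00873). Flrt3, a membrane protein that binds FGF receptors and is known to promote rather than inhibit their signalling, rose by 1.39 ± 0.25 (78.1 ± 10.4 against 29.3 ± 5.57 CPM, adjusted p 0.00419). Spred3, a relative of the Sprouty proteins, rose by 2.26 ± 0.57 (12.5 ± 9.10 against 1.30 ± 0.414 CPM, adjusted p 0.025). Lrig1, which promotes breakdown of ERBB receptors, rose by 1.24 ± 0.33 (137 ± 11.0 against 61.4 ± 25.5 CPM, adjusted p 0.0309). Flrt3 and Spry4 held in all 20 alternatives, and Spred3 and Lrig1 in 15 each. Spred3 was lost without Nestin+ replicate 2 or 3 or each single CD133+ library (adjusted p up to 0.107), and Lrig1 without each single Nestin+ library or CD133+ replicate 2 or 3 (up to 0.113). Between CD133+Nestin+ and Nestin+ libraries 0 passed without the block and 3 fell with it, Spry4 (-1.66 ± 0.36, adjusted p 0.0254), Lrig1 (-0.99 ± 0.23, adjusted p 0.0313) and Flrt3 (-0.96 ± 0.23, adjusted p 0.036). In that comparison 0.254% of genes fell without the block and 1.12% with it. The median of the regulators there was -0.45, against -0.04 over all genes. Between CD133+Nestin+ and CD133+ libraries 0 passed without the block, where 2.42% of genes were called. With it Sh3kbp1, an adaptor of receptor uptake, fell (-1.16 ± 0.27, adjusted p 0.0432), as did 595 of 16143 genes.

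Of other receptor tyrosine kinases 34 were measured and 32 tested. In Nestin+ against CD133+ libraries 3 rose and 6 fell, with a median difference of 0.21. That was 28.1% called, beside 11.9% of all genes (2.45% higher and 9.42% lower). Axl rose in addition with the block (0.70 ± 0.21, adjusted p 0.0413), where 6.06% of genes rose. The 4 of smallest p all fell. They were Kdr (-3.46 ± 0.32, adjusted p 0.000102) and Flt1 (-2.71 ± 0.38, adjusted p 0.00108), both VEGF receptors of endothelial cells, Pdgfrb (-2.64 ± 0.38, adjusted p 0.00112), a receptor of mural cells, and Musk (-2.85 ± 0.36, adjusted p 0.000597), a receptor kinase known from muscle synapses. Musk averaged 16.2, 1.24 and 16.2 CPM in CD133+Nestin+, Nestin+ and CD133+ libraries. The 3 that rose, named after their values were seen, were Pdgfra (3.90 ± 0.63, adjusted p 0.00238, called in 20 of 20 alternatives), the PDGF receptor of oligodendrocyte precursors, Tyro3 (1.54 ± 0.35, adjusted p 0.0157, called in 15 of 20) and Aatk (1.40 ± 0.41, adjusted p 0.0498, called in 11 of 19). Tyro3 was lost without each single Nestin+ library or CD133+ replicate 2 (adjusted p up to 0.0767), and Aatk without each single Nestin+ or CD133+ library (up to 0.198). Aatk averaged 3.14 ± 1.54 CPM in Nestin+ and 0.505 ± 0.0608 CPM in CD133+ libraries. It passed the filter of 1 CPM only with the Nestin+ libraries, where it was higher, so its call is a description. Against CD133+, CD133+Nestin+ libraries showed 0 that rose and 4 that fell (Flt1, Kdr, Csf1r and Pdgfrb, the last called in 9 of 20 alternatives). That was 12.5% called, beside 2.42% of all genes. With the block 1 rose, Epha7 (0.97 ± 0.24, adjusted p 0.0498), where 1.12% of genes rose. Csf1r was lost without CD133+ replicate 3 (adjusted p 0.0527), and Pdgfrb without each single CD133+ library, CD133+Nestin+ replicate 1 or 3 or Nestin+ replicate 1 or 2 (up to 0.172). Kdr and Flt1 are in the endothelial list, Csf1r in the microglial list and Pdgfrb in the mural list given above. In CD133+Nestin+ against Nestin+ libraries Musk rose by 2.91 ± 0.36 (adjusted p 0.00261), and Pdgfra, which is in the oligodendrocyte precursor list, fell by 2.96 ± 0.63 (adjusted p 0.0312), a call lost in 8 of 20 alternatives, among them those without each single Nestin+ library, CD133+Nestin+ replicate 2 or 3 or CD133+ replicate 3 (adjusted p up to 0.154). Without the block 6.25% of the 32 tested were called in that comparison, beside 3.13% of all genes. With the block Lmtk2 fell as well (-1.15 ± 0.29, adjusted p 0.0496), where 1.12% of genes fell.

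**Figure D4:**
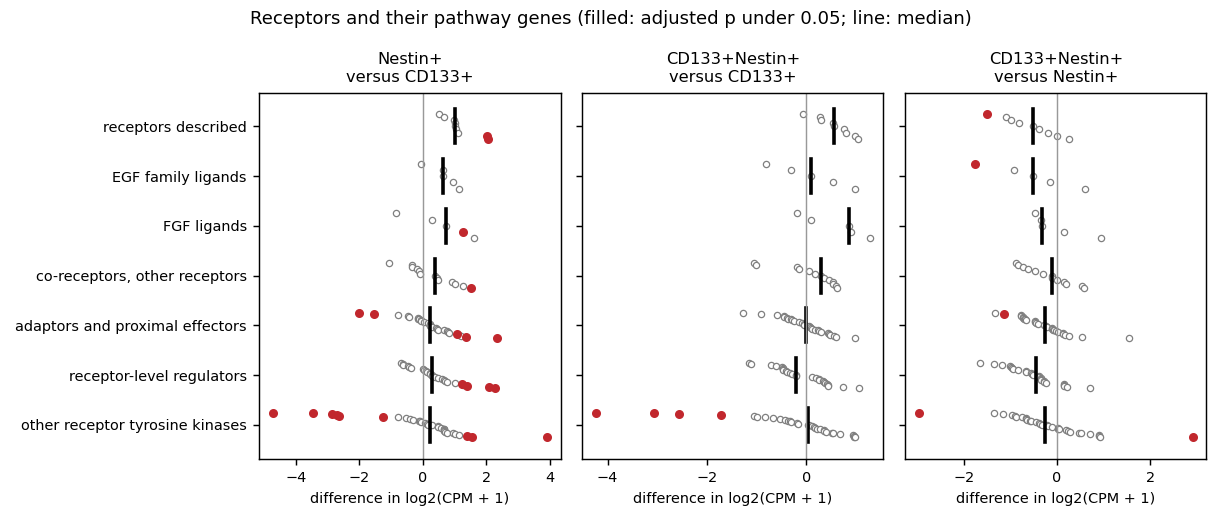
Difference of log2(CPM + 1) of each gene (points) in 7 lists, for Nestin+ minus CD133+ (left), CD133+Nestin+ minus CD133+ (middle) and CD133+Nestin+ minus Nestin+ (right); vertical bars are list medians, filled points have an adjusted p under 0.05 in limma without the block, and points within a list are offset by rank for display only. The 9 receptors described have the highest median of the 7 lists in the left panel, 1.02, and all 7 lists were chosen with earlier results of these data known.

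Across the 9 libraries the receptors varied in unlike ways. Over the 36 pairs of receptors Pearson's r of log2(CPM + 1) ran from -0.21 (Egfr with Fgfr1) to 0.91 (Erbb2 with Fgfr3), with a median of 0.57 and 3 pairs below 0. Fgfr1 followed Fgfr2 (r = 0.84), and Ntrk3 followed Erbb4 (r = 0.86) and Fgfr3 (r = 0.84). These libraries share populations, sorts and composition, so r is a description. The genes most like each receptor, by r over the same 9 libraries among genes with a mean of at least 10 CPM, were Xylt1 (0.986), Il1rap (0.984) and Flrt3 (0.983) for Ntrk3 and Ggt7 (0.973), Mical1 (0.963) and Pknox2 (0.961) for Fgfr3. For Ntrk2 they were Dchs1 (0.963), Gabbr1 (0.96) and Pogk (0.958), for Egfr Luzp2 (0.975), Grm3 (0.974) and Hnrnpab (0.971), and for Fgfr1 Klf15 (0.983), Rdh13 (0.976) and Ostm1 (0.974). Fgfr2 was followed most closely by Ssbp3 (0.987), Tent4a (0.984) and Pbxip1 (0.979), Erbb2 by Scg5 (0.982), Gpsm1 (0.974) and Apmap (0.968), and Erbb4 by Pcdh9 (0.976), Sox12 (0.969) and Adgrl3 (0.967). Erbb3 had the weakest likeness, with Zcchc3 (0.932), Peli2 (0.93) and Agap1 (0.917).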

How the data were processed

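RNA-seq libraries were grouped by the labels' cell population. Per the submitters' processing notes, bcl2fastq, STAR 2.5.3a, Partek 8.0 and limma were used with build mm10; no source used here states the counting method, the annotation or the use of strand. The values deposited by the authors were taken as CPM plus 0.0001, from steps of 0.0286 to 0.0344 CPM per read among low values. Whole reads could not be recovered (45.5% to 56.2% of low values whole within 0.02 reads), which left no count test. Per the file headers, the authors' other table holds p-values, false discovery rates and ratios of group means.

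Values were analysed as log2(CPM + 1) for genes reaching 1 CPM in 3 or more libraries (16143 kept, 2186 removed); such differences understate low genes. All 9 libraries were fitted together in limma 3.58.1 (R 4.3.3) with trended, robust variances (6 residual degrees of freedom, median prior 4.93) and Benjamini-Hochberg adjustment over all genes tested, with 0.05 as threshold. This fit was tested on simulated data with 200 changed genes among 16143, whereas 11.9% of genes were called in Nestin+ against CD133+. The changed genes were drawn from levels above that of Erbb3. Noise was independent between libraries, with nothing shared by sort number. The shares recovered may therefore differ in the data. In Nestin+ against CD133+, CD133+Nestin+ against CD133+ and CD133+Nestin+ against Nestin+, it recovered 11%, 4% and 9% of log2 changes of 1. For changes of 2 it recovered 82%, 84% and 79%. Unchanged genes made up 7%, 3.3% and 8.33% of calls. A receptor difference near 1 that did not pass is therefore no sign of equal levels.

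Deviations from group means correlated at 0.204 to 0.73 in the 9 library pairs sharing a sort number, and in the 18 other pairs at -0.527 to 0.314. By this measure, and not by any label, equal numbers were treated as pairs in the fits with the replicate block. The pairing was clearest in sort 1 (0.582 to 0.73) and weaker in sort 2 (0.322 to 0.369). In sort 3 it was weak (0.204 to 0.224), below the 0.314 of CD133+Nestin+ replicate 2 with Nestin+ replicate 3. The main fit of all 9 libraries held no term for the sort number, so its p-values and counts leave this pairing out. Values with the replicate block are given where they change a call or a count of calls.

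Members and lists were chosen with earlier results of these data known. All members were named, and from each pathway list up to 4 genes past the threshold with the smallest p per comparison; further pathway genes that the block called, and the other receptor kinases that rose, were named after their values were seen. Likeness took the 3 genes of highest r, without predicted genes. Positions and lengths came from GENCODE M21 (GRCm38) and promoters from RefSeq (GRCm38.p6). The 20 alternatives were the replicate block, with and without CD133+Nestin+ replicate 2, each library left out, sorts 2 and 3 only, the 2 groups alone, a pseudocount of 0.1, both a filter of 5 CPM and none, centring on the median, quantile normalization, library weights, and variances without trend or robust prior.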

Additional observations from a re-analysis of the deposited data

How the results depend on the processing

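Of 537 receptor differences and p-values refitted for 27 comparisons of single receptors, 489 kept their direction and side of the threshold, 27 passed only in the alternative, 5 were lost and 16 turned direction. None of the 16 belonged to a call. Fgfr3 and Ntrk3 in Nestin+ against CD133+ held in all 20 alternatives. With the replicate block on the paired sort numbers, 5 receptors rose in Nestin+ against CD133+ (4 with quantile normalization, 8 with library weights, 7 with the block without CD133+Nestin+ replicate 2), 2 rose in CD133+Nestin+ against CD133+ (2 without that library) and 3 fell in CD133+Nestin+ against Nestin+ (2 without it). The F test called 4 receptors with the block, 6 with library weights and 5 with the block without CD133+Nestin+ replicate 2. The block changed no other receptor call. Leaving out 1 library gave 0 to 1 receptor that fell in CD133+Nestin+ against Nestin+, and 2 to 3 that rose in Nestin+ against CD133+.

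Genes called in Nestin+ against CD133+ numbered 1915, or 3094 with the block, 4182 with library weights, 4900 with the block without CD133+Nestin+ replicate 2 and 1043 to 2764 without 1 library (1168 without Nestin+ replicate 2 and 1043 without CD133+ replicate 2). In CD133+Nestin+ against CD133+ they numbered 390, or 776 with the block, 711 with library weights, 809 with the block without that library, 204 with the 2 groups alone and 97 to 472 without 1 library (236 without CD133+Nestin+ replicate 3, and 211, 185 and 97 without CD133+ replicates 1, 2 and 3). In CD133+Nestin+ against Nestin+ they numbered 505, or 983 with the block, 1320 with the block without that library and 173 to 663 without 1 library (180 without CD133+Nestin+ replicate 3, and 279, 173 and 226 without Nestin+ replicates 1, 2 and 3). The F test called 1534, or 2656 with the block, 3426 with library weights, 4119 with the block without CD133+Nestin+ replicate 2 and 863 to 2083 without 1 library (863 and 984 without Nestin+ replicates 2 and 3, 1014 without CD133+ replicate 2). Median centring and quantile normalization shifted the median of all genes in Nestin+ against CD133+ by 0.135 and 0.147 and split the calls into 587 higher and 1300 lower, and 696 and 1370, against 395 and 1520.

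Erbb3 in CD133+Nestin+ against CD133+ (-0.07) turned to 0.06 with median centring, 0.12 with quantile normalization, 0.05 with library weights, 0.05 with the block without CD133+Nestin+ replicate 2, and 0.04 to 0.09 without CD133+Nestin+ replicate 3 or CD133+ replicate 2. Ntrk2 in CD133+Nestin+ against Nestin+ (-0.01) turned to 0.16 with quantile normalization, 0.07 with library weights, 0.03 with sorts 2 and 3 only, and 0.06, 0.1 and 0.2 without CD133+Nestin+ replicate 2, replicate 3 or Nestin+ replicate 1. Egfr in CD133+Nestin+ against CD133+ turned to -0.23 and -0.33 without CD133+Nestin+ replicate 1 or CD133+ replicate 2 (highest 0.66 without 1 library), and Fgfr1 in CD133+Nestin+ against Nestin+ (-0.19) to 0.24 and 0.3 without CD133+Nestin+ replicate 1 or Nestin+ replicate 3 (lowest -0.62). The cause was not tested. All 9 receptors were above 3 reads in every library.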
